A study of Mus musculus with 15 samples.

Results

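The 7 genes described here are *Sox10*, *Mbp*, *Pmp22*, *Mal*, *Prx*, *Cnp* and *S100b*, which mark Schwann cells and the myelin they make. They were chosen by gene symbol, as known markers and not by a threshold on measured values, although earlier results of these data were known, out of 24982 genes counted by RNA-Seq, and all 7 were among the 14121 genes that passed the filter on low counts. The RNA came from whole aortas of 15 male wild-type C57BL/6 mice aged 10 months, with 1 aorta per library and 5 libraries per group. Control mice had a sham operation, another group was orchiectomized, and the last group was orchiectomized and received a pellet of dihydrotestosterone (DHT), an androgen that is not converted to estrogen. After 2 weeks of recovery all 3 groups received Aldo-salt, that is aldosterone at 200 µg/kg per day by minipump with 0.9% NaCl and 0.2% KCl in the drinking water, for 7 days. Every group therefore carried the Aldo-salt treatment, and each mouse was 1 biological replicate. The comparisons addressed how loss of testicular androgen, and its replacement by DHT, changed gene expression in the aorta of mice given Aldo-salt.

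Schwann cells are the glia of peripheral nerves. Myelinating Schwann cells wrap 1 axon in layers of compacted membrane, whereas non-myelinating Schwann cells hold several thin axons in a bundle. Around the aorta, nerve fibers run in the adventitia and in the surrounding fat, and most of them are sympathetic fibers without myelin. *Sox10* encodes the transcription factor that Schwann cells require at every stage. *Mbp*, *Pmp22* and *Mal* encode proteins of the myelin membrane, *Prx* encodes periaxin, a scaffold of the myelinating Schwann cell, *Cnp* encodes an enzyme of noncompact myelin, and *S100b* encodes a calcium-binding protein of glia. Several of these genes are also used outside nerves: *S100b* in fat cells, *Mal* in T cells, *Pmp22* in many mesenchymal cells, and *Prx* in endothelial cells of the lung.

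Levels are given as CPM, that is gene counts scaled to 1 common library size after normalization by the trimmed mean of M values (TMM). The libraries held 8268957 to 13816864 gene counts. The lowest member count was 22, for *Sox10*. Replicate 2 of the orchiectomized group stood apart from the other 14 libraries. It held 1979 CPM of *Sftpc*, the surfactant protein C gene of the lung, against at most 3.92 CPM in any other library, and 2329 CPM of *Scgb1a1*, a gene of airway club cells. The summed level of the 10 listed lung epithelium genes was 6585 CPM in that library, 8.22 to 38.5 CPM in the other 4 orchiectomized libraries, 4.82 to 6.07 CPM in control mice and 5.31 to 8.48 CPM with DHT. Leaving out replicate 2 therefore did not remove the difference in lung transcripts: the other 4 orchiectomized libraries were still above every control library, and 2 of the 4 tested lung genes (*Napsa* and *Scgb1a1*) still passed in the higher direction (unadjusted *P* value under 0.01), where 0.846% of all genes tested without replicate 2 did. *Sox2*, a gene of immature Schwann cells and of airway epithelium, was at 43.5 CPM there and at most 2.07 CPM elsewhere. The same library had the highest level of 6 of the 7 members, all but *S100b*, so the members' differences between the orchiectomized group and the others are given with and without it. How much of a member's level there came from lung tissue was not tested.

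Of the 10 genes listed for oligodendrocytes, the myelinating cells of the brain, 8 had a mean level under 1 CPM, and 2 of these, *Olig2* and *Opalin*, had 0 counts in every library. Of the 10 melanocyte genes, which were checked because melanocytes also use *Sox10*, 7 had a mean under 1 CPM. Compared per length of merged exons, the median levels over the 15 libraries in CPM per kilobase were 95.9 for *Pmp22*, 21.3 for *S100b*, 11.0 for *Cnp*, 6.24 for *Mbp*, 6.20 for *Prx*, 2.74 for *Mal* and 2.35 for *Sox10*. The ranges over the libraries of neighbors in this order overlapped for every pair after *Pmp22*, whose lowest library, at 65.3 CPM per kilobase, was above the highest *S100b* level of 43.7.

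*Cnp* (ENSMUSG00000006782, chromosome 11, 100574904 to 100591729, plus strand, mm10) was the member with the clearest difference between the groups. The 250 bases before its RefSeq start site are shown because they hold the 1 match found in any member promoter. The sequence is from RefSeq, build GRCm38.p6, chr11:100574689-100574938, plus strand, with the matching letters in capitals.
Cnp: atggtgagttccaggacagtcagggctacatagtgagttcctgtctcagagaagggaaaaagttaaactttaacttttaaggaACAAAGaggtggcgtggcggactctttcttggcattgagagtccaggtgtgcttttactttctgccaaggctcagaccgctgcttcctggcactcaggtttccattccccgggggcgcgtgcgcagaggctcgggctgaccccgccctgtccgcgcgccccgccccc
The match is ACAAAG, which begins 167 bases before the start site (offset -167) and is one of the core motifs bound by SOX proteins. RefSeq promoters of 300 bases, from 250 bases before to 50 after a start site, were matched for 5 of the 7 members, and were searched on both strands for ACAAAG and ACAATG, SOX core motifs, and for AGAACA, a half-site of the androgen receptor. Of all 32851 promoters of that length, 18.7% held ACAAAG, 12.6% held ACAATG and 19.0% held AGAACA. The match describes these letters and is not a measured binding site.

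**Figure D1:**
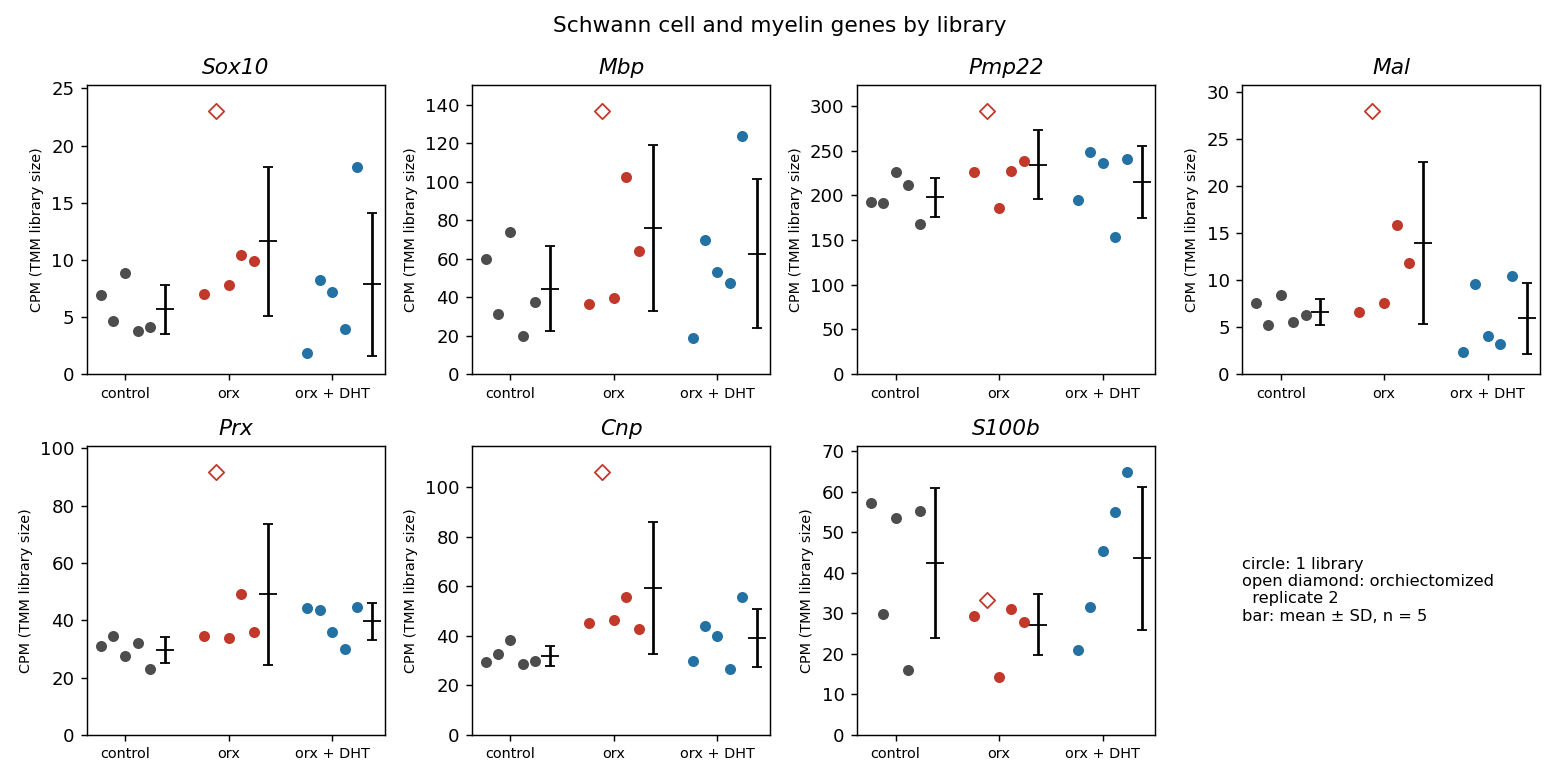
CPM of the 7 genes in each of the 15 libraries (orx, orchiectomized), with 1 panel per gene and the mean ± SD of each group (n = 5) beside the points. The open diamond is orchiectomized replicate 2, which was highest for every gene but *S100b*, and only for *Cnp* did the control points (28.6 to 38.3 CPM) lie wholly below the orchiectomized points (42.9 to 106).

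*Sox10* (ENSMUSG00000033006, chromosome 15, 79154908 to 79165240, minus strand) was expressed at a low level. In control replicates 1 to 5 it was at 6.88, 4.68, 8.86, 3.75 and 4.11 CPM, in the orchiectomized replicates at 7.00, 23.0, 7.78, 10.4 and 9.93 CPM, and in the orchiectomized mice given DHT at 1.88, 8.20, 7.18, 3.95 and 18.1 CPM. The DHT group thus held both the lowest library of all 15 (replicate 1) and the second highest (replicate 5), and the 3 groups overlapped. The group means were 5.66 ± 2.17, 11.6 ± 6.52 and 7.86 ± 6.25 CPM (SD, n = 5). The log2 fold change of orchiectomized over control mice was 1.04 (standard error 0.49), with an adjusted *P* value of 0.420 by edgeR. An exact two-sided permutation test of log2 CPM gave *P* = 0.0317, which was 0.208 after adjustment over the 21 such tests of 7 genes in 3 comparisons. Without orchiectomized replicate 2 it gave 0.0635 unadjusted, and the log2 fold change was 0.64 (standard error 0.47). DHT-treated over untreated orchiectomized mice gave -0.57 (adjusted *P* = 0.541), and -0.15 without that library.

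*Mbp* (ENSMUSG00000041607, chromosome 18) encodes a protein that binds the inner faces of the myelin membrane together. It was at 59.8, 31.3, 74.0, 19.6 and 37.4 CPM in control replicates 1 to 5, at 36.3, 136.6, 39.7, 102.6 and 64.0 CPM in the orchiectomized replicates, and at 19.0, 69.5, 52.8, 47.4 and 123.5 CPM in the DHT replicates. Each group spanned at least a 3-fold range, and the groups overlapped over most of it. The log2 fold change of orchiectomized over control mice was 0.78 (standard error 0.48, adjusted *P* = 0.521), and that of DHT-treated over untreated orchiectomized mice was -0.28 (standard error 0.48, adjusted *P* = 0.783). Without orchiectomized replicate 2 the former was 0.45 and the latter 0.05, so the direction of the latter rested on that library.

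*Pmp22* (ENSMUSG00000018217, chromosome 11, 63128982 to 63159547, plus strand), a tetraspan protein of compact myelin, had the highest level per length. It also had the least spread by the biological coefficient of variation given below, though not by the range of libraries in every group. Its lowest and highest libraries were at 168.0 and 225.8 CPM in control mice, 185.4 and 294.2 CPM in orchiectomized mice, and 153.7 and 248.8 CPM in mice given DHT. The groups overlapped, and its log2 fold changes of 0.24, -0.13 and 0.12 in the 3 comparisons (orchiectomized over control, DHT-treated over untreated orchiectomized, DHT-treated orchiectomized over control) had adjusted *P* values of 0.506, 0.669 and 0.778. Without orchiectomized replicate 2 the first 2 were 0.14 and -0.02. The biological coefficient of variation, which is the spread between mice of a group beyond counting error, was 0.176 for *Pmp22* but 0.515 for *Mbp* and 0.531 for *Sox10*.

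*Mal* (ENSMUSG00000027375, chromosome 2, 127633226 to 127656695, minus strand), a proteolipid of myelin that T cells also make, was at 7.61, 5.24, 8.45, 5.52 and 6.30 CPM in the control libraries, at 6.57, 28.0, 7.61, 15.8 and 11.8 CPM in the orchiectomized libraries, and at 2.31, 9.55, 4.10, 3.21 and 10.4 CPM in the DHT libraries. Orchiectomized replicates 2, 4 and 5 lay above every control and DHT library, whereas replicates 1 and 3 lay within their range. The log2 fold change of orchiectomized over control mice was 1.08 (standard error 0.44, adjusted *P* = 0.370), and that of DHT-treated over untreated orchiectomized mice was -1.23 (standard error 0.44, adjusted *P* = 0.119). Both had an unadjusted *P* value under 0.05 but not under 0.01, the threshold used for a call, and without orchiectomized replicate 2 they were 0.66 and -0.81 (standard error 0.40 for each) and neither was under 0.05. Exact permutation tests gave *P* = 0.0556 and 0.0635 with all libraries, and 0.222 for each after adjustment over all such tests of the members. The summed level of the 10 listed T cell genes was 6.56 to 18.2 CPM in control mice, 10.8 to 78.3 CPM in orchiectomized mice and 6.16 to 9.38 CPM with DHT. Of the 8 tested among them, 6 rose with orchiectomy at an unadjusted *P* value under 0.01, where 2.08% of all tested genes rose, and 4 without orchiectomized replicate 2, where 0.846% rose. With DHT against untreated orchiectomized mice 8 fell, where 7.27% of all tested genes fell, and 6 without that library, where 5.26% fell. Their part in the *Mal* level was not tested.

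*Prx* (ENSMUSG00000053198, chromosome 7, 27499324 to 27520214, plus strand) was at 31.2, 34.6, 27.4, 32.2 and 23.0 CPM in the control libraries, at 34.4, 91.8, 33.7, 49.2 and 36.1 CPM in the orchiectomized libraries, and at 44.3, 43.7, 35.8, 30.1 and 44.5 CPM in the DHT libraries. The lowest orchiectomized library was just under the highest control library, so these groups overlapped. The log2 fold change of orchiectomized over control mice was 0.72 (standard error 0.25, adjusted *P* = 0.312), with an unadjusted *P* value just over the threshold. Without orchiectomized replicate 2 it was 0.36 (standard error 0.16). The exact permutation test gave *P* = 0.0238 with that library (0.208 after adjustment over all such tests of the members) and 0.0397 without it. DHT-treated over untreated orchiectomized mice gave -0.30 (adjusted *P* = 0.509), and 0.06 without that library. In DHT-treated orchiectomized mice against control mice the log2 fold change was 0.42 (standard error 0.25, adjusted *P* = 0.525). The exact permutation test gave *P* = 0.0397 there, and 0.208 after the same adjustment.

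*Cnp* was at 29.4, 32.6, 38.3, 28.6 and 29.9 CPM in the control libraries, at 45.1, 106.1, 46.2, 55.7 and 42.9 CPM in the orchiectomized libraries, and at 29.7, 44.0, 39.9, 26.5 and 55.5 CPM in the DHT libraries. Every orchiectomized library was above every control library, while the DHT libraries reached into both ranges. *Cnp* rose with orchiectomy from 31.8 ± 3.93 to 59.2 ± 26.7 CPM (SD, n = 5), a log2 fold change of 0.90 with a standard error of 0.25. Its unadjusted *P* value by edgeR was under 0.01, whereas the adjusted *P* value over all 14121 genes was 0.262, so the call holds at the unadjusted threshold only. Without orchiectomized replicate 2 the log2 fold change was 0.57 (standard error 0.18), still under 0.01 unadjusted (adjusted *P* = 0.512), and the orchiectomized mean was 47.5 ± 5.68 CPM. The summed lung epithelium level also lay above every control library in those 4 libraries, and its part in the *Cnp* difference was not tested. An exact two-sided permutation test of log2 CPM gave *P* = 0.00794, the smallest value 5 against 5 libraries can give, and 0.0159 without that library, and the former was 0.167 after adjustment over the 21 such tests of 7 genes in 3 comparisons, the lowest adjusted value among them. With DHT the log2 fold change against untreated orchiectomized mice was -0.60 (standard error 0.25, adjusted *P* = 0.179), and -0.27 (standard error 0.18) without replicate 2. Of the exon bases of *Cnp*, 4.2% also belong to *Dnajc7* on the opposite strand, and of those of *Prx*, 5.4% to the antisense gene *Gm15541*. Reads there cannot be told apart unless the counting used strand, which was not stated.

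*S100b* (ENSMUSG00000033208, chromosome 10, 76253853 to 76261159, plus strand) had the opposite sign to the other 6 in the comparisons with untreated orchiectomized mice. It was at 57.1, 29.8, 53.6, 16.1 and 55.3 CPM in the control libraries, at 29.4, 33.2, 14.3, 31.1 and 27.8 CPM in the orchiectomized libraries, and at 21.0, 31.5, 45.4, 54.9 and 64.8 CPM in the DHT libraries. The control libraries fell into 3 above 50 CPM and 2 at or under 30, and both orchiectomized and DHT libraries overlapped with them. Orchiectomized over control mice gave a log2 fold change of -0.64 with a standard error of 0.36 (adjusted *P* = 0.473), and DHT-treated over untreated orchiectomized mice one of 0.68 with a standard error of 0.36 (adjusted *P* = 0.294). Neither was under 0.05 before adjustment, and both kept their sign and were of similar size without orchiectomized replicate 2, at -0.73 and 0.77.

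**Figure D2:**
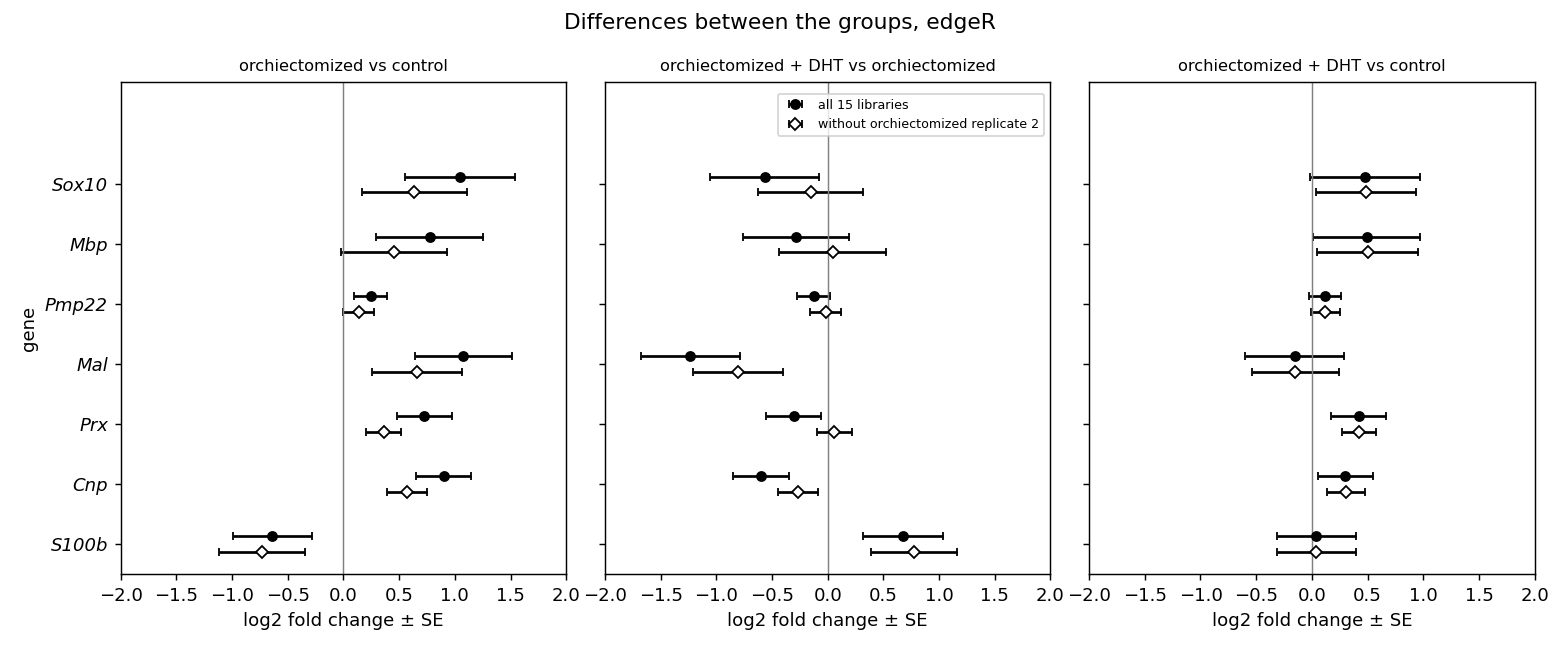
Log2 fold change ± standard error by edgeR of the 7 genes in the 3 comparisons, from all 15 libraries (filled circles) and without orchiectomized replicate 2 (open diamonds). In orchiectomized against control mice 6 genes lie to the right of 0 and *S100b* to the left, and without that library *Cnp* moves from 0.90 to 0.57 and *Prx* from 0.72 to 0.36.

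Between orchiectomized and control mice, 1 of the 7 genes (*Cnp*) had an unadjusted *P* value under 0.01, against 3.22% of all genes tested, and it rose, as did 2.08% of all genes (1.13% fell). *Cnp*, *Prx* and *Mal* were under 0.05, a level that 12% of all genes tested reached. Groups did not overlap for 1 of the 7, against 1.51% of all genes. The median log2 fold change of the 7 was 0.78 (0.45 without orchiectomized replicate 2), with 6 above 0, and the median of all tested genes was 0.04. None of the 7 had an adjusted *P* value under 0.05 by edgeR, and of all genes tested 0% had one. In whole aortas a change in the number of Schwann cells and a change in the RNA of each cell cannot be told apart.

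Between orchiectomized mice with and without DHT, edgeR called 0 of the 7 genes at an unadjusted *P* value under 0.01, whereas 9.72% of all tested genes were called (7.27% lower and 2.46% higher with DHT), and 0 of the 7 had an adjusted *P* value under 0.05, against 4.72%. *Mal* and *Cnp* were under 0.05, a level that 21.2% of all genes reached by edgeR. DESeq2 called 1 gene (*Mal*), and the share of all genes that it called is not given, so this count has no baseline. Groups did not overlap for 0 of the 7, against 6.43% of all genes. The median was -0.30 with 6 genes below 0, and without orchiectomized replicate 2 it was -0.02 with 4 below 0. Between DHT-treated orchiectomized and control mice, edgeR called 0 of the 7, with 0 under 0.05, and DESeq2 also called 0. Of all tested genes 3.53% were called there, 11.8% were under 0.05, 0.262% passed after adjustment and 3.58% did not overlap, as was so for 0 of the 7. The log2 fold changes were 0.49 for *Mbp*, 0.48 for *Sox10*, 0.42 for *Prx*, 0.30 for *Cnp*, 0.12 for *Pmp22*, 0.04 for *S100b* and -0.16 for *Mal*. Without orchiectomized replicate 2, edgeR still called 0 of the 7 in this comparison, where 4.80% of all genes tested were called. *Prx* was then under 0.05 before adjustment (0.42, standard error 0.15, adjusted *P* = 0.240). The first 2 comparisons share the orchiectomized libraries, so that opposite signs in them are not separate observations.

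Ordered by group mean, *Mbp*, *Sox10*, *Pmp22*, *Prx* and *Cnp* were lowest in control mice, intermediate with DHT and highest in orchiectomized mice. Without orchiectomized replicate 2 the orchiectomized means of *Mbp* (60.6 CPM) and *Prx* (38.3 CPM) were below the DHT means (62.4 and 39.7 CPM), so that part of the order rested on that library. *Mal* was lowest with DHT, and *S100b* was lowest in orchiectomized mice and close to equal in the other groups (42.4 ± 18.5 and 43.5 ± 17.6 CPM). No neighbors in these orders differed beyond the threshold, while for *Cnp* the ends of the order, control and orchiectomized mice, did.

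The other genes of Schwann cells and myelin were taken from 3 lists of 59 genes, of which 51 were tested. With orchiectomy 2 rose at an unadjusted *P* value under 0.01 and 0 fell, where 2.08% of all tested genes rose and 1.13% fell, and 46 of the 51 log2 fold changes were above 0 (43 without orchiectomized replicate 2), as were 56.8% of those of all tested genes. Their median was 0.58, and without orchiectomized replicate 2 it was 0.29 with 0 genes called. edgeR gave 12 of them an unadjusted *P* value under 0.05 with all libraries, where 12% of all tested genes had one, and 3 without that library, and the 2 calls were lost there. The genes called were *Bcas1*, a gene of myelinating glia, and *Erbb3*, the receptor through which axonal neuregulin reaches Schwann cells. *Bcas1* was at 1.19 to 1.87 CPM in control mice and at 2.80, 17.7, 1.14, 3.99 and 2.36 CPM in the orchiectomized replicates, and its log2 fold change was 1.89 with a standard error of 0.61 (adjusted *P* = 0.301), and 0.76 without replicate 2. *Erbb3* was at 4.60 to 7.40 CPM in control mice and at 3.98, 39.9, 9.09, 13.2 and 10.2 CPM in the orchiectomized replicates, and its log2 fold change was 1.47 with a standard error of 0.50 (adjusted *P* = 0.308), and 0.73 without replicate 2. In both genes 1 library, orchiectomized replicate 2, carried most of the difference. That library also held the lung transcripts, and the part of lung tissue in its *Bcas1* and *Erbb3* levels was not tested.

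Among the 15 tested genes of compact and noncompact myelin, 15 had a positive log2 fold change with orchiectomy, with a median of 1.20 (0.68 without orchiectomized replicate 2). *Cldn19*, a tight junction gene of noncompact myelin, had a log2 fold change of 1.81 (adjusted *P* = 0.331), and *Arhgap19* had one of 0.59 (adjusted *P* = 0.322). Without replicate 2 they were 1.59 and 0.54.

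Among the 17 genes of non-myelinating and immature Schwann cells, 17 were above 0 with orchiectomy, with a median of 0.50 and 0 called by edgeR, and 15 were above 0 without orchiectomized replicate 2. *Foxd3*, a neural crest transcription factor, had the smallest *P* value (log2 fold change 1.44, adjusted *P* = 0.378), followed by *Kcna1* (0.82, adjusted *P* = 0.425) and *Scn7a*, a sodium channel gene of non-myelinating Schwann cells (0.50, adjusted *P* = 0.433), and without that library they were 1.33, 0.69 and 0.27. The most abundant of the 17 were *Postn* and *Cnn3*, at means of 1718 and 427 CPM. How much of these levels came from Schwann cells was not tested. Among the 19 tested regulators and axon-to-glia signals, 14 were above 0, with a median of 0.17. Besides *Erbb3*, *Egr2*, the transcription factor that turns on the myelin program, had a log2 fold change of 0.80 (adjusted *P* = 0.379, and 0.29 without replicate 2), and *Erbb2*, the partner of ERBB3, had 0.38 (adjusted *P* = 0.453, and 0.11 without replicate 2). *Tead1* (-0.24), *Nab1* (-0.19) and *Yy1* (-0.05) were among the genes below 0, did not pass the test, and were -0.18, -0.08 and -0.03 without replicate 2.

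In DHT-treated against untreated orchiectomized mice 1 of the 51 genes, *Matn2*, fell at an unadjusted *P* value under 0.01, where 7.27% of all tested genes fell, and 40 were below 0 (33 without orchiectomized replicate 2), while 46.7% of all tested genes were above 0. *Matn2*, which encodes the matrix protein matrilin-2 made by Schwann cells, was at 44.6, 54.4, 89.2, 78.4 and 63.7 CPM in the orchiectomized libraries and at 23.4, 57.7, 29.4, 21.0 and 42.5 CPM with DHT. Of the DHT libraries, replicates 1, 3, 4 and 5 lay below every orchiectomized library and replicate 2 lay within their range. Its log2 fold change was -0.92 (standard error 0.28, adjusted *P* = 0.0763), and -0.97 without orchiectomized replicate 2. Fibroblast markers were also lower with DHT: of 10 tested, 10 were below 0 with a median of -0.47, and 4 fell at an unadjusted *P* value under 0.01 (4 also without that library). Their part in the *Matn2* difference was not tested. *Egr2* (-0.97, adjusted *P* = 0.113), *Erbb3* (-1.41, adjusted *P* = 0.114), *Scn7a* (-0.70, adjusted *P* = 0.118) and *Adgrg6*, a receptor required to start myelination (-1.18, adjusted *P* = 0.162), came next, and without orchiectomized replicate 2 they were -0.46, -0.67, -0.46 and -0.59. *Bcas1*, *Arhgap19* and *Ugt8a* had -1.10, -0.38 and -0.87, and *Cdh19* had -0.91, and without that library they were 0.03, -0.33, -0.75 and -0.75. On the positive side *Cldn11* had 0.35, *Ncam1* 0.26, *Tead1* 0.25, *L1cam* 0.19, *Nab1* 0.17, *Nfatc4* 0.14 and *Art3* 0.13, and without that library all 7 were still above 0, from 0.06 (*Nab1*) to 0.76 (*Cldn11*). The median of the 51 was -0.36, and -0.14 without that library. In DHT-treated orchiectomized against control mice edgeR called 0 of the 51, with 1 under 0.05, and DESeq2 called 0. There the median was 0.23, with 36 above 0, against 49.5% of all tested genes.

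**Figure D3:**
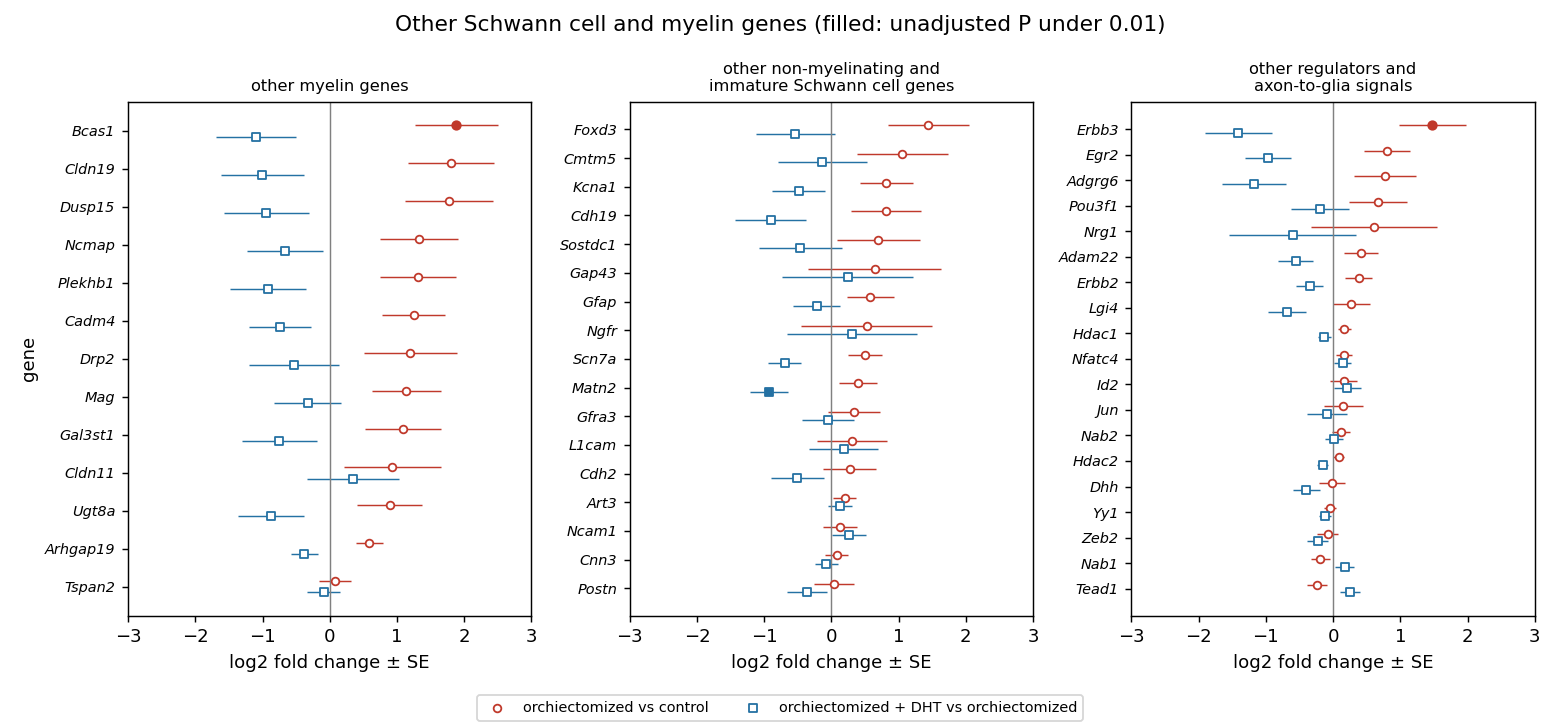
Log2 fold change ± standard error of 49 other Schwann cell and myelin genes tested, with 1 panel per list, for orchiectomized against control mice (red circles) and DHT-treated against untreated orchiectomized mice (blue squares). Filled symbols mark the 3 unadjusted *P* values under 0.01 (*Bcas1* and *Erbb3* with orchiectomy, *Matn2* with DHT), and all 13 myelin genes shown lie to the right of 0 for orchiectomy.

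Some of the members varied together between mice of the same group. After the group means were removed from log2 CPM, the 21 pairs of members had a median Pearson's r of 0.68 (range -0.02 to 0.92) over 15 libraries, and of 0.58 (range -0.28 to 0.90) without orchiectomized replicate 2. With the marker lists, 84 relations were computed. Pearson's r was past an adjusted *P* value of 0.05 by permutation within groups for 22 of them, including 9 pairs of members, and for 7 of them, including 3 pairs, without that library. *Mbp* and *Sox10* had r = 0.917 (Spearman's rho = 0.929, permutation *P* = 1e-05 for each, the smallest the resamples can give, adjusted 0.00042 and 0.00084), and r = 0.868 without the 2 libraries farthest from the median *Sox10* level. *Sox10* and *Mal* had r = 0.894 (rho = 0.893, permutation *P* = 1e-05 and 0.00017, adjusted 0.00042 and 0.0048), and 0.824 without the 2 farthest libraries. *Mbp* and *Mal* had r = 0.889 (rho = 0.896, permutation *P* = 3e-05 and 6e-05, adjusted 0.00084 and 0.0025), and 0.835 without the 2 farthest. These were the 3 pairs that also passed without orchiectomized replicate 2, at r = 0.902, 0.869 and 0.873.

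*Cnp* went with *Sox10* at r = 0.838 (rho = 0.861, permutation *P* = 0.00091 and 0.00099, adjusted 0.0096 and 0.015), and at 0.849 without orchiectomized replicate 2, where the adjusted *P* value was 0.051. Of all members, *Prx* had the lowest r with *Mbp* and the lowest with *Sox10*, at 0.400 and 0.453, whose adjusted permutation *P* values were 0.32 and 0.17. *Prx* and the lung epithelium level had r = 0.872 (rho = 0.789, permutation *P* = 0.0021 and 0.0024, adjusted 0.016 and 0.024), 0.664 without the 2 farthest libraries and 0.697 without replicate 2 (adjusted *P* = 0.073). *Cnp* and the lung level had r = 0.798 (rho = 0.746, permutation *P* = 0.00037 and 0.0018, adjusted 0.0067 and 0.022), 0.538 without the 2 farthest libraries and 0.655 without replicate 2 (adjusted *P* = 0.027), when the summed lung level was at most 38.5 CPM. The part of lung tissue in the *Prx* and *Cnp* levels was not tested.

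*S100b* varied with transcripts of fat. With the level of 12 adipocyte genes it had r = 0.908 (rho = 0.746, permutation *P* = 0.0004 and 0.0074, adjusted 0.0067 and 0.037), and 0.791 without the 2 farthest libraries. *Mbp* also went with the adipocyte level, at r = 0.708 (rho = 0.586, permutation *P* = 0.007 and 0.034, adjusted 0.034 and 0.098), 0.471 without the 2 farthest libraries and 0.791 without orchiectomized replicate 2. With a list of 8 brown fat genes, chosen after the data were seen, *S100b* had r = 0.903 (rho = 0.882, permutation *P* = 0.00053 and 0.0011, adjusted 0.0074 and 0.015), 0.864 without the 2 farthest libraries and 0.947 without orchiectomized replicate 2. The summed brown fat level was 1332 to 5017 CPM in control mice, 1356 to 2424 CPM in orchiectomized mice and 1734 to 4766 CPM with DHT, a group order like that of *S100b*. *Ucp1*, the uncoupling protein of brown fat, was at 2663, 1242, 2831, 660 and 1621 CPM in control replicates 1 to 5, so control replicate 4 was low in both genes. With *Mbp*, *S100b* had r = 0.753 (rho = 0.718, permutation *P* = 0.0026 and 0.0053, adjusted 0.017 and 0.032), and 0.579 without the 2 farthest libraries. With the other members its r was 0.586 for *Sox10*, 0.455 for *Mal*, 0.332 for *Cnp*, 0.113 for *Pmp22* and -0.023 for *Prx*, with adjusted permutation *P* values of 0.07 to 0.94.

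**Figure D4:**
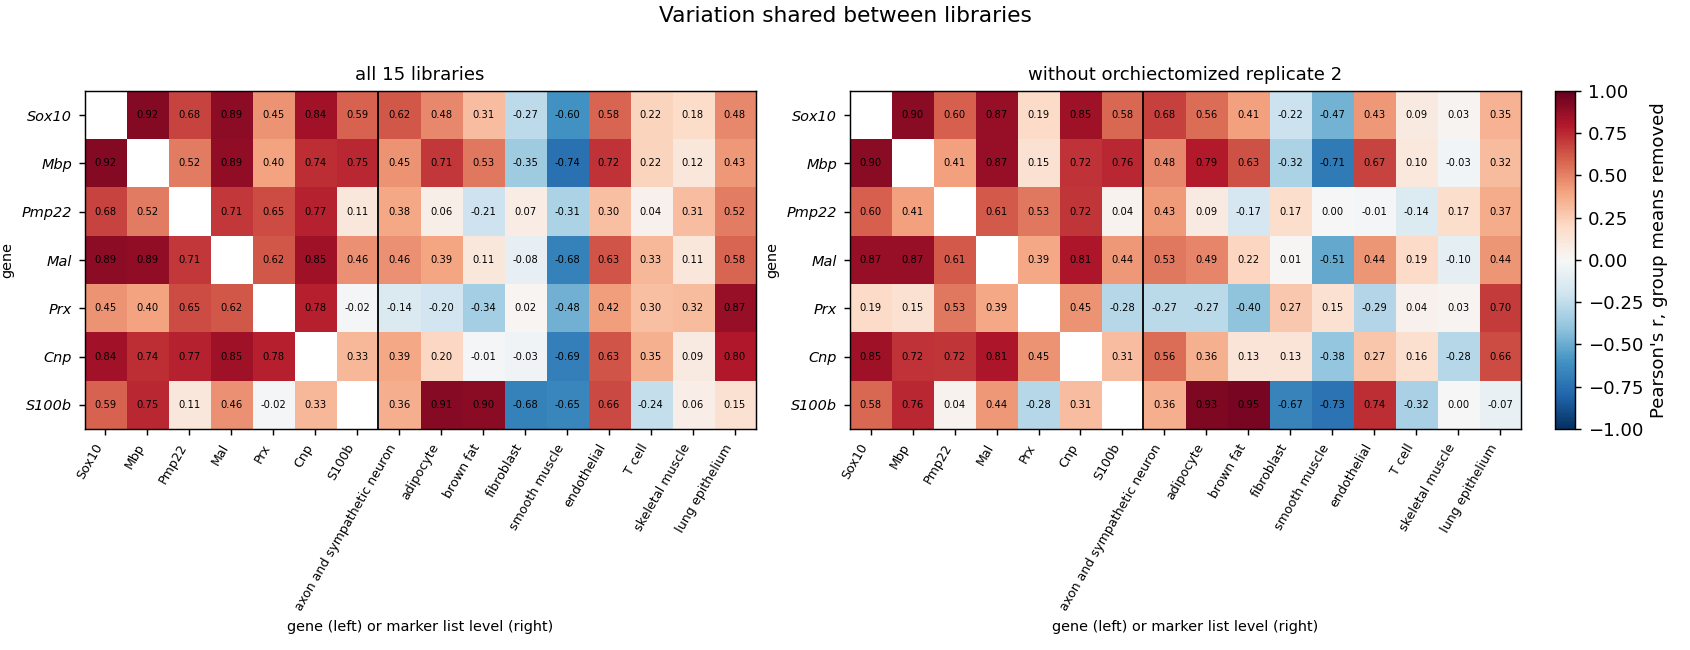
Pearson's r between the members (left of the line) and between each member and the mean log2 CPM of marker lists (right of the line), with group means removed, over 15 libraries and without orchiectomized replicate 2. *Sox10*, *Mbp* and *Mal* stay at 0.869 or above with each other in both panels, and *S100b* is at 0.91 and 0.90 with the adipocyte and brown fat lists in the left panel.

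The levels of myelin genes and of sympathetic axon transcripts did not always go together. *Th*, tyrosine hydroxylase of sympathetic neurons, was at 7.15, 2.72, 71.8, 4.89 and 19.4 CPM in the control libraries, at 58.6, 15.1, 30.2, 1.79 and 61.3 CPM in the orchiectomized libraries, and at 0.428, 38.6, 8.85, 3.09 and 239.5 CPM in the DHT libraries. DHT replicate 5 was highest for *Th* and second for *Mbp*, and DHT replicate 1 was lowest for both. Orchiectomized replicate 4, at 102.6 CPM of *Mbp*, had only 1.79 CPM of *Th*. The level of the 20 axon and sympathetic neuron genes had r = 0.448 with *Mbp* (rho = 0.379, permutation *P* = 0.14 and 0.21, adjusted 0.27 and 0.37), which fell to 0.041 without the 2 farthest libraries. With *Sox10* it had r = 0.622 (rho = 0.482, permutation *P* = 0.043 and 0.13, adjusted 0.10 and 0.27), which fell to 0.225. Of these 20 genes, edgeR called 0 in each comparison, with 0 under 0.05, while 20 were above 0 both with orchiectomy (median 0.71) and with DHT against control (median 0.95), as were 56.8% and 49.5% of all tested genes. The summed level ranged from 191 to 1224 CPM in control mice, from 166 to 1065 CPM in orchiectomized mice and from 180 to 2574 CPM with DHT. The group medians of this sum were 250, 620 and 311 CPM. The 2574 CPM were those of DHT replicate 5, and the next DHT library had 734 CPM. Genes of 1 list can vary together, so the 20 signs are not separate observations. How they change without DHT replicate 5 was not tested.

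*Mbp* was lower where smooth muscle transcripts were higher, with r = -0.744 (rho = -0.725, permutation *P* = 0.0014 and 0.0044, adjusted 0.013 and 0.031), and -0.745 without the 2 farthest libraries. *Sox10*, *S100b*, *Mal* and *Cnp* also had negative r with it (-0.605, -0.649, -0.675 and -0.686, adjusted permutation *P* = 0.024, 0.034, 0.017 and 0.042). When orchiectomized replicate 2 was left out, *Mbp* had r = -0.708 (adjusted permutation *P* = 0.051), and no member passed by Pearson's r, while *S100b* passed by Spearman's rho (-0.815, adjusted permutation *P* = 0.017). With the endothelial level *Mbp* had r = 0.722 (rho = 0.743, permutation *P* = 0.0038 and 0.0053, adjusted 0.023 and 0.032) and 0.620 without the 2 farthest libraries, and *S100b* had r = 0.658 (rho = 0.682, permutation *P* = 0.011 and 0.0061, adjusted 0.044 and 0.034) and 0.730 without them. With the fibroblast level *S100b* had r = -0.679 (rho = -0.621, permutation *P* = 0.0086 and 0.016, adjusted 0.038 and 0.058) and -0.629 without the 2 farthest. These 3 relations did not pass when orchiectomized replicate 2 was left out (r = 0.673, 0.742 and -0.670, adjusted permutation *P* = 0.084, 0.062 and 0.079). CPM are shares of 1 library, so the level of 1 tissue component is not independent of another. The smooth muscle sum was 15950 to 22920 CPM in control mice, 12290 to 22680 CPM in orchiectomized mice and 22080 to 27170 CPM with DHT. The fibroblast sum was 7814 to 10920, 8879 to 12340 and 5892 to 9150 CPM in the same order.

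**Figure D5:**
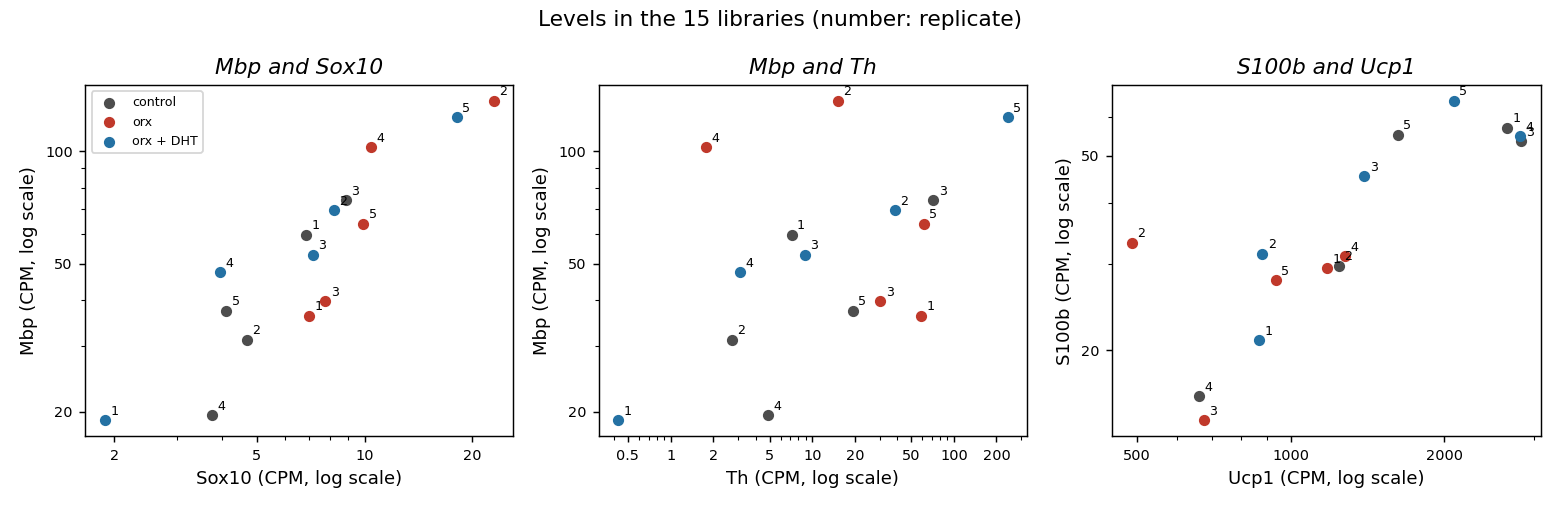
Levels in CPM on log axes in each library (orx, orchiectomized), labeled by replicate, for *Mbp* against *Sox10*, *Mbp* against *Th*, and *S100b* against *Ucp1*. *Mbp* and *Sox10* rise together through all 3 groups, orchiectomized replicate 4 combines 102.6 CPM of *Mbp* with 1.79 CPM of *Th*, and *S100b* tends to be higher where *Ucp1* is higher, with orchiectomized replicate 2 apart from the other points.

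Among all tested genes, those whose log2 CPM was most like that of each member over the 15 libraries, group differences included, were ranked by Pearson's r as a description without a test. Among the 3 nearest to *Mbp* was *Drp2* (0.925), a gene of myelinating Schwann cells, and among the 3 nearest to *Sox10* were *Cadm4* (0.951) and *Cmtm5* (0.946). For *Mal* the nearest were *Gpm6b* (0.941), *Tec* (0.916) and *Sfrp5* (0.915). For *Cnp* they were *Gpsm3* (0.949), *B4galnt1* (0.932) and *Ptger2* (0.931). *Pmp22* was nearest to *Egfl8* (0.928), *Tmem51* (0.896) and *Bex4* (0.873), and *Prx* to *Sp3os* (0.914), *Fam110a* (0.887) and *D430036J16Rik* (0.882). *S100b* was nearest to *Tmem177* (0.976), *Rtn4ip1* (0.973) and *Mdh2* (0.964), of which *Mdh2* and *Rtn4ip1* encode mitochondrial proteins. Without orchiectomized replicate 2 the nearest genes were *Plekhb1* for *Mbp*, *Cib2* for *S100b*, *Cdh19* for *Mal*, *Egfl8* for *Pmp22* and *Gpsm3* for *Cnp*. *Cadm4* (0.959) and *Cmtm5* (0.954) were then still among the 3 nearest to *Sox10*.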

How the data were processed

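For each of the 15 libraries the authors deposited the count of reads on every gene symbol, in whole numbers and not normalized. Per the labels, poly(A) libraries were made from whole aortas, the processing notes name STAR, Cufflinks and DESeq2, and the build was mm10. The counting program and annotation are not given in the sources used here. The 2 entries that name no gene held 6.26% to 14.4% (no gene) and 1.34% to 1.97% (ambiguous) of reads and were left out. Groups and replicate numbers came from the labels.

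The tests used edgeR 4.0.16 (R 4.3.3): filterByExpr (minimum count 10, minimum total 15), TMM, and 1 quasi-likelihood model of the 3 groups over all 15 libraries, with group as the only term. Genes were called at an unadjusted *P* value under 0.01, with Benjamini-Hochberg adjustment over 14121 genes. log2 CPM used a prior count of 3. Standard errors were the size of the log2 fold change divided by the square root of the quasi-likelihood F statistic. Relations used 100000 permutations within groups. Positions and exon lengths came from GENCODE M21. The method was tested on simulated data. The members, lists and tests were chosen with earlier results of these data known.

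Named genes were the 7 members; per wider list, the 3 smallest *P* values higher and the 3 lower in the first 2 comparisons; the 3 genes most like each member; and up to 2 abundant genes of other lists. Some genes that these rules name are not reported here. *Sox2*, *Napsa*, *Ucp1*, *Th*, *Olig2* and *Opalin* were chosen after their values were seen. Alternatives were DESeq2 1.42.0, RLE size factors, other count filters, only the groups compared, the replicate number as a block, a robust fit, limma 3.58.1 voom with quality weights, the adjusted threshold, and leaving out each library in turn. Relations and likeness without orchiectomized replicate 2 and the brown fat list were added after the data were seen. Among the 30 pairs of libraries within groups, none agreed within counting error (lowest chi-square per degree of freedom 11.7). Figures were drawn with matplotlib 3.10.9.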

Additional observations from a re-analysis of the deposited data

Results flagged for a closer look

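Of 21 groups of 5 libraries examined for 1 value standing far from the others, 2 held such a value, and chance gives about 1 in 20. *S100b* in orchiectomized replicate 3 was low, at a log2 CPM of 3.87 against 4.81 in the nearest orchiectomized library (gap over range 0.790). *Cnp* in orchiectomized replicate 2 was high, at a log2 CPM of 6.73 against 5.81 in the nearest orchiectomized library (gap over range 0.711), in the library that also held the lung transcripts.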

How the results depend on the processing

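*Cnp* stayed past an unadjusted *P* value of 0.01 with orchiectomy in 23 of 23 alternative fits, *Prx* passed in 4 of 23 and *Mal* with DHT in 5 of 23. Members called with orchiectomy (1) became 2 with DESeq2, 0 at an adjusted *P* value under 0.05, and 1 to 2 when single libraries were left out. Members called with DHT against untreated orchiectomized mice (0) became 1 with DESeq2 and 0 to 1 with single libraries left out. The wider genes called with orchiectomy (2) became 4 with DESeq2, 1 with RLE size factors, 1 with at least 10 counts in every library, 0 with only the groups compared, 0 at the adjusted threshold, and 0 to 5 with single libraries left out, from 0 without orchiectomized replicate 2 to 5 without replicate 1 or 3. For DHT against untreated orchiectomized mice (1) they became 4 with DESeq2, 0 with only the groups compared, 0 with voom, 0 at the adjusted threshold, and 0 to 6 with single libraries left out (6 without orchiectomized replicate 1), and against control mice (0) they became 1 with voom and 0 to 1 with single libraries left out. The share of all tested genes called is given for 2 of the alternatives only, the adjusted threshold and the fit without orchiectomized replicate 2. In the latter it was 1.79%, 8.39% and 4.80% in the 3 comparisons. Counts under the other alternatives, DESeq2 among them, therefore have no baseline. The cause of these shifts was not tested.

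The replicate numbers were not treated as pairs in the main fit. Of 15 same-number pairs, 5 had a correlation over 0.1 (range -0.466 to 0.463). Pairs with different numbers were not compared, so these values cannot decide whether the numbers pair the samples. With the replicate number as a block the wider genes called were 0 with orchiectomy and 2 with DHT against untreated orchiectomized mice, *L1cam* turned to -0.111 there, and the members called stayed at 1, 0 and 0.

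The directions that reversed belonged to differences that did not pass the test. In DHT-treated against untreated orchiectomized mice, *Prx* turned to 0.049 and *L1cam* to -0.168 with voom. With single libraries left out, *Mbp* ranged from -0.650 to 0.045 and *Prx* from -0.396 to 0.061 (both highest without orchiectomized replicate 2), *Bcas1* from -1.403 to 0.030, *Cldn11* from -0.621 to 0.756 and *L1cam* from -0.619 to 0.413. Against control mice, *S100b* turned to -0.111 with voom and ranged from -0.172 to 0.215 with single libraries left out, *Sox10* from -0.086 to 0.733 and *Mal* from -0.452 to 0.054.

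Limits: 1 library carries much of the orchiectomy difference in most members, *Sox10* and *Mal* have as few as 22 and 26 counts in a library, and 5 mice per group limit the precision.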
